A study of Mus musculus with 12 samples.

Results

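Early B lineage and recombination genes were followed across dendritic cell precursors and plasmacytoid dendritic cells (pDCs) of mouse bone marrow. The 10 genes were taken as a list (Dntt, Rag1, Rag2, Cd79a, Cd79b, Blnk, Vpreb1, Igll1, Ebf1 and Pax5), not by their values in these cells. Earlier results of these data were known when the list was chosen, so it is not independent support. Of the 21754 genes in the count table used here, 9 were members of this list, and Rag1 was not analysed here. RNA came from C57BL/6 mice with no engineered allele or treatment named on the labels, in 12 libraries with 3 per population. Bone marrow was depleted of lineage-positive cells, B cells included, and CD11c+ cells were sorted. Pre-cDCs, precursors of conventional dendritic cells (cDCs), lacked Siglec-H. The Siglec-H+ cells were split into lo-lo precursors (CCR9lo B220lo), lo-hi precursors (CCR9lo B220hi) and differentiated pDCs (CCR9hi B220hi). B220 is also carried by B cells, and the lo-hi and pDC gates took B220hi cells.

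The populations used here are not those on the deposited labels. They follow a match between the order of 28 transcription factor values in each well and in the study's source data, in which each of the 12 wells had 0 of 378 gene pairs in another order than its best sample, and at least 7 pairs against any other sample. None of the B lymphoid genes is among the 28. Wells A1, A5 and A9 were taken as pre-cDC replicates 1 to 3, A2, A6 and A10 as lo-lo, A3, A7 and A11 as lo-hi and A4, A8 and A12 as pDC, and values below are given in this order. This differs from the label in 8 of the 12 wells. With wells grouped by label instead, 0 of the 15293 genes tested and 0 of the 9 B lymphoid genes passed an adjusted p of 0.01 (quasi-likelihood test of edgeR, adjusted by Benjamini-Hochberg), and 166 genes but 0 of the 9 had an unadjusted p under 0.05. Every statement on a population below therefore rests on the match.

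Totals ranged from 1801463 to 5995971 counts per library with a median of 3087455. Levels are CPM (counts per 1000000 of a library's total, scaled between libraries by TMM), and 3 counts, taken as the floor, come to 0.5 to 1.67 CPM before that scaling. The matched populations carried their defining genes. Siglech, which encodes Siglec-H, rose from 308 ± 122 CPM (SD, n = 3) in pre-cDCs to 855 ± 136 in lo-lo and 2131 ± 206 in lo-hi precursors, and pDCs held 2791 ± 232. Ccr9, a chemokine receptor gene, stood at 33.0 ± 11.5, 66.0 ± 3.26, 231 ± 18 and 461 ± 61.8 CPM. Zbtb46, a transcription factor gene of the cDC lineage, had the opposite order with 19.9 ± 3.14, 11.5 ± 2.44, 5.35 ± 2.05 and 2.72 ± 1.21 CPM. As a transcription factor gene, Zbtb46 may be among the genes of the match, so its order is no separate check of the populations. The study's legend speaks of 3 individual mice while its methods describe pooled mice for precursor sorts, so the p-values cover the spread between these libraries, whatever its source. In sorted bulk RNA, more RNA per cell and more cells of a type cannot be told apart.

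B cell development proceeds by the assembly of immunoglobulin genes. The Rag1 and Rag2 proteins cut the gene segments, and terminal deoxynucleotidyl transferase (Dntt) adds bases at the joints without a template. Vpreb1 and Igll1 form the surrogate light chain that pairs with the first heavy chain, Cd79a and Cd79b carry the signal of the (pre-)B cell receptor and Blnk is the adaptor that links it to downstream enzymes. Ebf1 and Pax5 are the transcription factors that specify the B lineage and commit cells to it. Some of these genes, and rearranged immunoglobulin loci, are known from pDCs too, and early lymphoid progenitors can give rise to pDCs.

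The promoters of Dntt, which passed across the populations, and of Igll1 and Pax5, which did not, are shown side by side, since these windows lie outside annotated genes. Each sequence holds the 250 bases before the start site (RefSeq, GRCm38.p6), read 5′ to 3′ on the gene's strand. Capitals mark E-boxes (CANNTG, its own reverse complement), the sites of E proteins such as the pDC regulator E2-2 and of E2A in B cells. The windows are chr19:41029025-41029274 (+) for Dntt, chr16:16863986-16864235 (-) for Igll1 and chr4:44710695-44710944 (-) for Pax5.
Dntt: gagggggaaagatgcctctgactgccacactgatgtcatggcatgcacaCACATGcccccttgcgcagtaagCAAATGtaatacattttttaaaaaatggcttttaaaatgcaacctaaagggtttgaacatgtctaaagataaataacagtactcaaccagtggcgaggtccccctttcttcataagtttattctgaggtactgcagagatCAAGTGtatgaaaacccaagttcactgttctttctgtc
Igll1: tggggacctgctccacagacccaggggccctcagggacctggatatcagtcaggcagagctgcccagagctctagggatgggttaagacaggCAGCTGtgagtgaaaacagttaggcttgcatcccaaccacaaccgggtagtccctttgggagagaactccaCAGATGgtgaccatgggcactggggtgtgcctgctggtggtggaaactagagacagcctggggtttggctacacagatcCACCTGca
Pax5: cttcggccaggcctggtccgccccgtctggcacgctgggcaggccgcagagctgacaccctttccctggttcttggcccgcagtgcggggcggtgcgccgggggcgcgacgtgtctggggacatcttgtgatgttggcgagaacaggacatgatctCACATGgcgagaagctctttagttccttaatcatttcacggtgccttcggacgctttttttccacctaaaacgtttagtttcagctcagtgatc

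Dntt had 3 E-boxes, whose first bases lie at -201, -178 and -38 from the start, Igll1 had 3 (-158, -87 and -8) and Pax5 had 1 (-94). An E-box was present in 66.2% of the 32851 mouse promoter windows of this length, so its presence sets none of the 3 genes apart. Of the 10 listed genes, 9 had an upstream window in the RefSeq table, and Cd79b had none. These are matches of letters within a window and say nothing about binding.

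Across the 4 populations, 3 of the 9 genes passed an adjusted p of 0.01, namely Blnk (adjusted p = 1.7e-10), Dntt (5.7e-10) and Cd79b (0.0017) by the quasi-likelihood F test of edgeR with Benjamini-Hochberg adjustment over all genes. The background is 19.9% of the 15293 genes tested. All 3 were higher in lo-hi precursors and pDCs than in lo-lo precursors, and Blnk and Dntt had at least 66 counts in each library. Rag2, Cd79a, Vpreb1, Igll1, Ebf1 and Pax5 passed neither this test nor any comparison of 2 populations. The plot of single libraries shows both kinds of gene.

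**Figure D1:**
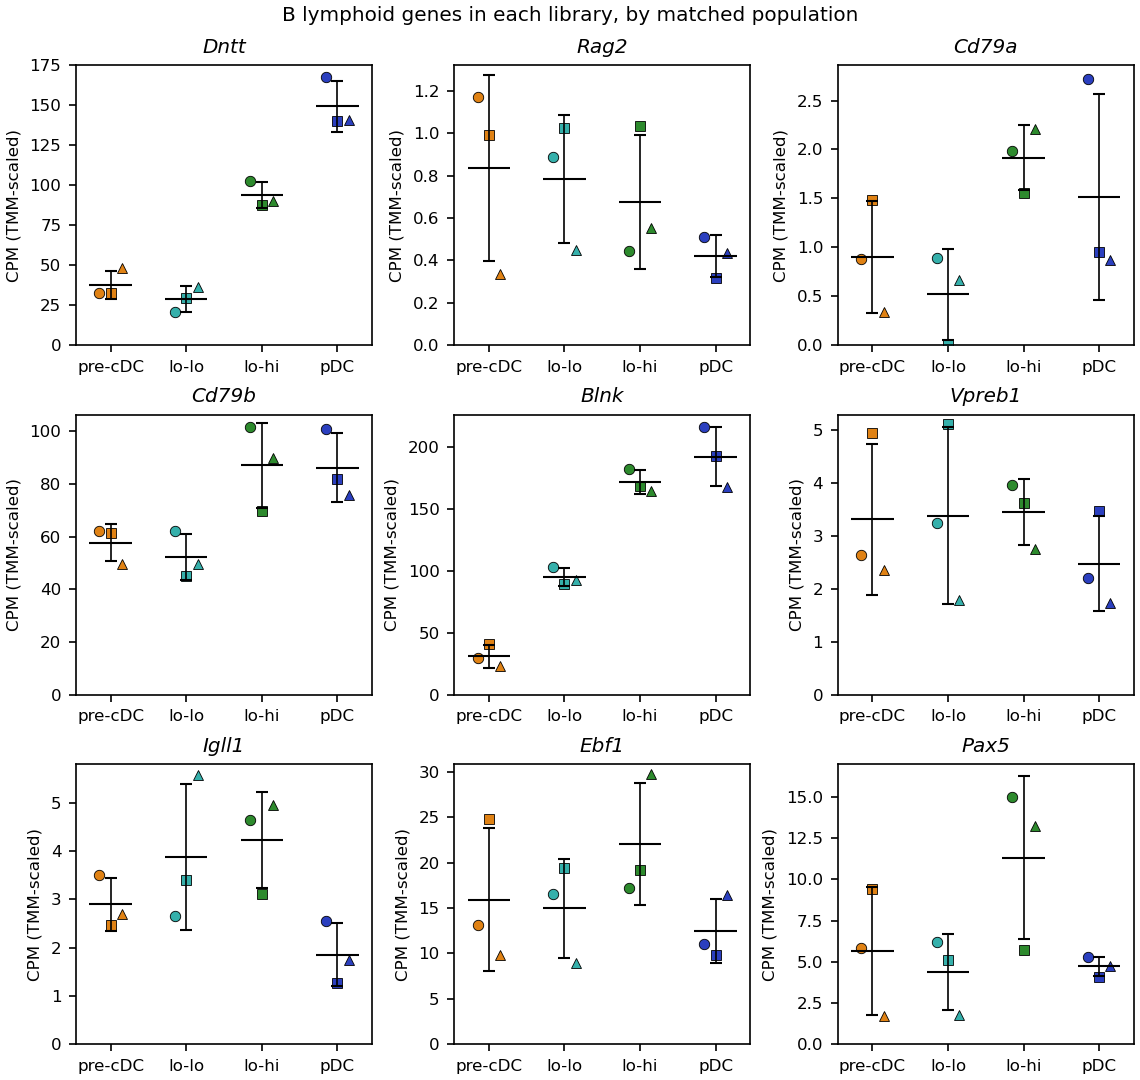
Level of each B lymphoid gene in each library, in TMM-scaled CPM on a linear axis that differs between genes, by matched population. Circles, squares and triangles are replicates 1, 2 and 3, long bars are means and error bars are 1 SD (n = 3). All lo-hi and pDC libraries of Dntt, Cd79b and Blnk lie above all pre-cDC and lo-lo libraries, while Rag2 stays at or under 1.17 CPM.

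Among the recombination genes, Dntt (chr19:41029275-41059525, plus strand, 12 exons) was low in pre-cDCs and lo-lo precursors and high in lo-hi precursors and pDCs. Pre-cDC libraries held 32.8, 32.7 and 48.0 CPM and lo-lo libraries 20.7, 29.3 and 36.6. In lo-hi precursors the values were 103, 87.9 and 90.4 CPM and in pDCs 168, 140 and 141. No library of the lo-hi precursors or pDCs fell to the level of any pre-cDC or lo-lo library. Lo-hi precursors exceeded lo-lo precursors 3.23-fold (log2 fold change 1.69, SE 0.20, adjusted p = 4.9e-06), and pDCs exceeded them 5.15-fold (2.36, SE 0.20, adjusted p = 1.8e-09, edgeR quasi-likelihood test with Benjamini-Hochberg adjustment, as for every adjusted p below). Over pre-cDCs, the differences were 2.48-fold for lo-hi precursors (adjusted p = 1.7e-05) and 3.94-fold for pDCs (1.2e-08). The step from lo-hi precursors to pDCs was 1.59-fold with no overlap of libraries, but missed the threshold (log2 0.67, SE 0.18, adjusted p = 0.056), and it passed when genes of low counts were not left out (0.0085). Lo-lo precursors and pre-cDCs overlapped (log2 -0.38, SE 0.20, adjusted p = 0.34). The order of the means was thus pDC, lo-hi, pre-cDC and lo-lo, where the last pair did not differ beyond its spread.

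Rag2 (chr2:101624718-101632529, plus strand) was near absent from these libraries. It had 1 to 4 counts per library, 8 of the 12 libraries were under the floor of 3 counts, and no level exceeded 1.17 CPM. A difference between populations was not detectable at this depth (adjusted p = 0.82 across the 4 populations). Rag2 also lies within another annotated gene, B230118H07Rik, on the opposite strand.

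Of 13 other genes of recombination and end joining, 4 passed across the populations (19.9% of all genes did), 2 higher and 2 lower in pDCs than in pre-cDCs. Hmgb2, a DNA-bending protein and cofactor of the Rag proteins, fell from 783 ± 130 CPM in pre-cDCs (n = 3 here and below) and 681 ± 52.5 in lo-lo precursors to 302 ± 29.7 in lo-hi precursors and 140 ± 13.9 in pDCs. Poll, a DNA polymerase that fills gaps at joints, fell from 6.07 ± 1.19 CPM to 1.88 ± 0.426, 0.871 ± 0.584 and 1.03 ± 0.237. It had 1 to 24 counts per library, and lo-hi 2 and 3 were under the floor of 3 counts. Dclre1c, the Artemis nuclease that opens hairpin ends, rose from 8.82 ± 3.92 CPM in pre-cDCs to 32.1 ± 10.3 in pDCs, and Atm, the kinase that responds to DNA breaks, from 18.2 ± 1.90 to 43.8 ± 10.8. The other 9 genes, Lig4, Xrcc4 and Prkdc among them, did not pass. The median log2 fold change of the 13 genes between pDCs and pre-cDCs was 0.57, beside 0.05 for all genes tested.

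Of the receptor subunits, Cd79b passed and Cd79a did not. Cd79b (chr11:106311341-106314762, minus strand, 6 exons) stood at 62.1, 61.5 and 49.7 CPM in pre-cDCs and 62.0, 45.0 and 49.6 in lo-lo precursors. Lo-hi libraries held 102, 69.8 and 89.8 CPM and pDC libraries 101, 81.8 and 75.9. Every lo-hi and pDC library was above every pre-cDC and lo-lo library, while pre-cDC overlapped with lo-lo libraries and lo-hi with pDC libraries. Cd79b was 1.68-fold higher in lo-hi than in lo-lo precursors (log2 0.75, SE 0.18, adjusted p = 0.0072) and 1.66-fold higher in pDCs than in lo-lo precursors (0.73, SE 0.18, adjusted p = 0.0035). The differences from pre-cDCs were of like size but missed the threshold, 1.52-fold for lo-hi precursors (adjusted p = 0.018) and 1.5-fold for pDCs (0.014). With the replicate number as a block, both passed (adjusted p = 0.0042 and 0.0030). Both Cd79b calls depended on single libraries. The first was lost without any 1 of 6 libraries (pre-cDC 1, lo-hi 1 or 3, lo-lo 2 or 3, or pDC 2), with adjusted p from 0.013 to 0.11, and the second without lo-lo 2 or 3 or pDC 1 or 2 (0.015 to 0.039).

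Cd79a (chr7:24897381-24902197, plus strand, 5 exons), whose product pairs with that of Cd79b, had 0 to 16 counts per library and 0 to 2.72 CPM. Its 3 lo-hi libraries (1.99, 1.55 and 2.20 CPM) were above all pre-cDC (0.878, 1.49 and 0.338) and lo-lo libraries (0.886, 0 and 0.670). The pDC libraries spread from 0.868 to 2.72 CPM, with 16 counts in pDC 1 and 3 and 2 in the others. No comparison passed (adjusted p = 0.17 across the 4 populations, and 0.17 for lo-hi over lo-lo precursors).

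Blnk (chr19:40928927-40994535, minus strand, up to 17 exons) had the largest fold change of the 9 genes. Its levels were 29.3, 41.2 and 23.0 CPM in pre-cDCs, 103, 89.8 and 92.5 in lo-lo precursors, 183, 168 and 164 in lo-hi precursors and 216, 193 and 168 in pDCs. The first 3 populations did not overlap, while lo-hi precursors and pDCs did. Lo-lo precursors exceeded pre-cDCs 3.10-fold (log2 1.63, SE 0.18, adjusted p = 2.0e-06), and lo-hi exceeded lo-lo precursors 1.81-fold (0.85, SE 0.17, adjusted p = 0.0013). The latter call was lost without lo-hi 1 (adjusted p = 0.019) or lo-lo 3 (0.012). Between lo-hi precursors and pDCs the log2 difference was 0.16 (SE 0.17, adjusted p = 0.82). Blnk was the only one of the 9 genes to pass between lo-lo precursors and pre-cDCs, where Dntt and Cd79b were level or slightly lower in lo-lo precursors. From pre-cDCs to pDCs it rose 6.27-fold (log2 2.65, SE 0.19, adjusted p = 5.7e-11).

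Of 13 further genes that act around Blnk below the receptor, 3 passed across the populations (19.9% of all genes did), and all 3 were higher in pDCs than in pre-cDCs. Prkcb, a protein kinase C gene, stood at 20.6 ± 8.74, 38.5 ± 7.28, 93.9 ± 11.4 and 118 ± 12.4 CPM in pre-cDCs, lo-lo, lo-hi and pDCs, and passed from lo-lo to lo-hi precursors too (adjusted p = 1.2e-04). Syk, the kinase that phosphorylates Blnk, rose from 64.9 ± 12.2 CPM in pre-cDCs to 143 ± 12.9 in pDCs, and Pik3ap1, an adaptor to PI3 kinase, from 3.01 ± 0.518 to 11.6 ± 1.70. The other 10, with Btk, Plcg2, Lyn and Vav1, did not pass, and the median log2 fold change of the list between pDCs and pre-cDCs was 0.15. Many of these genes also serve other receptors.

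The surrogate light chain genes gave few counts. Vpreb1 (chr16:16868403-16870843, minus strand) had 4 to 18 counts per library, with 2.63, 4.96 and 2.36 CPM in pre-cDCs, 3.25, 5.12 and 1.79 in lo-lo precursors, 3.98, 3.62 and 2.76 in lo-hi precursors and 2.21, 3.47 and 1.74 in pDCs. All 4 populations overlapped (adjusted p = 0.81 across the 4 populations). Vpreb2 is nearly identical in sequence, so reads may be split between these genes, and Vpreb1 overlaps Top3b on the opposite strand. Igll1 (chr16:16860671-16863985, minus strand), which starts 6.90 kb from Vpreb1, had 4 to 25 counts, with 3.51, 2.48 and 2.70 CPM in pre-cDCs, 2.66, 3.41 and 5.58 in lo-lo, 4.64, 3.10 and 4.96 in lo-hi and 2.55, 1.26 and 1.74 in pDCs. Each pDC library of Igll1 was below each lo-lo and lo-hi library, but the comparisons missed the threshold (adjusted p = 0.079 with lo-lo and 0.24 with lo-hi precursors, and 0.14 across the 4 populations).

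The B lineage transcription factors did not follow Dntt and Blnk. Ebf1 (chr11:44617317-45008091, plus strand) had 29 to 78 counts per library. It stood at 13.2, 24.8 and 9.80 CPM in pre-cDCs, 16.5, 19.5 and 8.93 in lo-lo, 17.2, 19.1 and 29.8 in lo-hi precursors and 11.1, 9.79 and 16.5 in pDCs. These ranges overlap except that all pDC libraries were below all lo-hi libraries (log2 -0.82, SE 0.35, adjusted p = 0.36). Across the 4 populations Ebf1 had an adjusted p of 0.31. The gene overlaps the antisense gene Gm12158, and reads of the pair cannot be told apart without strand.

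Pax5 (chr4:44524757-44710487, minus strand) had 5 to 68 counts per library. Its levels were 5.86, 9.42 and 1.69 CPM in pre-cDCs, 6.20, 5.12 and 1.79 in lo-lo, 15.0, 5.69 and 13.2 in lo-hi precursors and 5.28, 4.11 and 4.77 in pDCs. The lo-hi libraries 1 and 3 were the highest of all, and lo-hi 2 was within the range of the lo-lo and pre-cDC libraries. Pax5 missed the threshold across the populations (adjusted p = 0.069) and between lo-hi and lo-lo precursors (log2 1.49, SE 0.47, adjusted p = 0.066). When genes of low counts were not left out, it passed in lo-hi over lo-lo (1.2e-04), pDC over lo-hi (0.0025) and lo-hi over pre-cDC (0.0051). Pax5 also overlaps antisense genes, Gm12462 among them. For Ebf1 and Pax5 alike, the mean was highest in lo-hi precursors and not in pDCs.

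**Figure D2:**
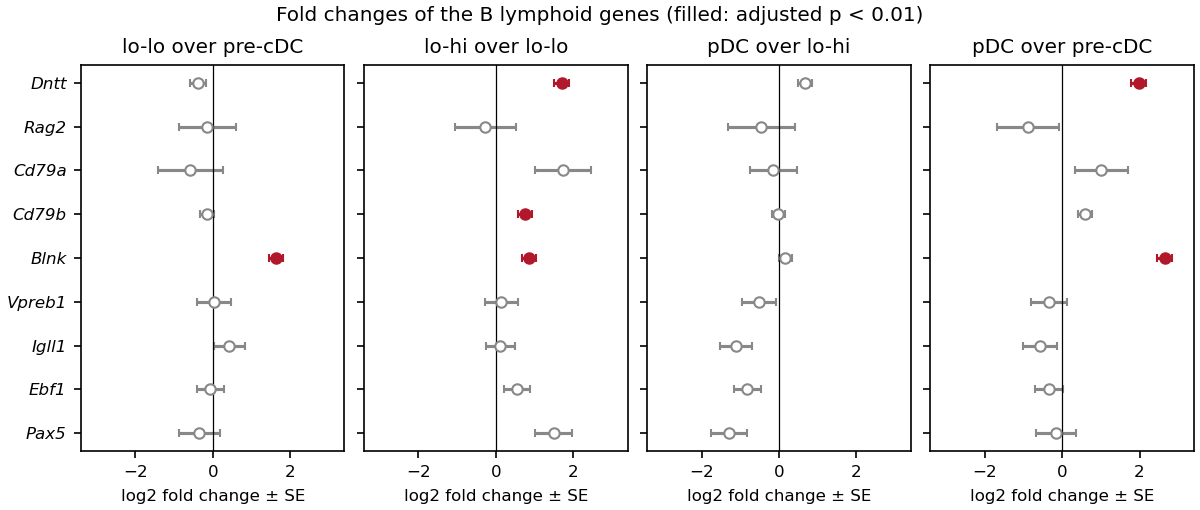
Log2 fold change of each B lymphoid gene with its standard error (edgeR, 3 libraries per population) in the steps between neighbouring populations and between pDCs and pre-cDCs. Filled red points passed an adjusted p of 0.01 and open grey points did not. Filled points lie right of 0 in 1, 3, 0 and 2 genes of the 4 panels.

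Over the 6 pairs of populations, all calls among the 9 genes were higher in lo-lo precursors than in pre-cDCs, in lo-hi precursors than in either, or in pDCs than in pre-cDCs or lo-lo precursors, and 0 were lower. From pre-cDCs to lo-lo precursors 1 gene passed (Blnk) and was higher, where 1.61% of all tested genes were higher and 1.55% lower. From lo-lo to lo-hi precursors 3 genes were higher, against 2.33% of all genes (2.83% lower). From lo-hi precursors to pDCs 0 of the 9 passed, where 0.118% of all genes were higher and 0.844% lower. DESeq2 called 0 too. By the same edgeR test 4 of the 9 had an unadjusted p under 0.05, a share not computed over all genes. Of these, Dntt was higher in pDCs (log2 0.67), while Igll1, Ebf1 and Pax5 were lower (-1.11, -0.82 and -1.29). Over pre-cDCs, 2 genes were higher in pDCs (11.4% of all genes higher, 10.4% lower) and 2 in lo-hi precursors (6.76% higher, 6.32% lower), and 3 were higher in pDCs than in lo-lo precursors (6.71% higher, 7.08% lower). The pairs share libraries, so these counts are not independent of each other. The median log2 fold change of the 9 genes was 0.75 from lo-lo to lo-hi precursors and -0.46 from lo-hi precursors to pDCs, beside 0.01 and 0.03 for all genes. The second median was the value of Rag2 (SE 0.87), which had 1 to 4 counts per library, so it shows no fall of the list.

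Dntt and Blnk are neighbours on chromosome 19. They are transcribed away from each other from starts 34.7 kb apart. Within 500 kb, 10 other genes were tested and 2 passed across the populations, a share near the 19.9% of all genes. These were Entpd1, an ectonucleotidase gene, and Pik3ap1 of the signaling list. Entpd1 held 20.9, 27.8, 34.5 and 46.7 CPM on average in pre-cDCs, lo-lo, lo-hi and pDCs. Side by side, the log2 fold changes of lo-lo precursors over pre-cDCs were 1.63 for Blnk and -0.38 for Dntt, and those of pDCs over pre-cDCs were 2.65 and 1.98.

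The genes whose log2 CPM was most like that of each called gene over the 12 libraries are given as a description, among the 10808 genes whose mean count was 10 or more. For Dntt these were Cd209d (Pearson r = 0.983), Khk (0.974) and Aldh3b1 (0.973). For Blnk they were Sla2 (0.995), Atp1b1 (0.994) and Stambpl1 (0.994), and for Cd79b Gsn (0.945), Ifi27 (0.931) and Srgn (0.917). The 12 points fall into 4 populations, whose means set most of each correlation.

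Early lymphoid regulators moved in more than 1 pattern. Of 17 such genes, 10 passed across the populations (19.9% of all genes did). In lo-hi precursors, 8 of the 17 were higher than in pre-cDCs and 0 lower (6.76% and 6.32% of all genes). In pDCs, 6 were higher and 1 lower than in pre-cDCs (11.4% and 10.4% of all genes). Against lo-lo precursors, 1 was higher and 4 lower in pDCs (6.71% and 7.08% of all genes). Il7r, the receptor of a cytokine that early B and T cells need, stood at 23.8 ± 7.28, 71.9 ± 10.8, 137 ± 8.68 and 152 ± 10.6 CPM in pre-cDCs, lo-lo, lo-hi and pDCs, the same order as Blnk. Ly6d, a surface marker of lymphoid progenitors, was at 502 ± 48.3 CPM in pre-cDCs and already at 2043 ± 415 in lo-lo, with 2397 ± 420 in lo-hi precursors and 2033 ± 316 in pDCs. Sox4 and Myb, transcription factor genes of progenitors, were instead highest in lo-lo precursors (62.3 ± 11.8 and 52.1 ± 14.6 CPM) and stood at 19.0 ± 4.62 and 23.6 ± 4.77 CPM in pDCs. Mef2c, a transcription factor gene, rose from 178 ± 19.2 CPM in pre-cDCs to 406 ± 69.1 in pDCs, and Rhoh, a GTPase gene of blood cells, from 14.9 ± 1.68 to 31.8 ± 6.91. The median log2 fold change of the 17 genes was 0.40 between pDCs and pre-cDCs.

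RNA of B cells was looked for with 18 further B cell genes, of which 17 had a row, all reaching 3 counts in at least 1 library. Ighd was not analysed here. Ms4a1, the gene of the B cell surface protein CD20, named here after its values were seen, gave few counts, 1 to 9 per library with 5 libraries under the floor of 3. It held 0.293, 0.992 and 0.338 CPM in pre-cDCs, 2.36, 1.71 and 0.223 in lo-lo, 1.99, 3.62 and 2.76 in lo-hi precursors and 0.681, 0.632 and 2.17 in pDCs (adjusted p = 0.11 across the 4 populations). The gene was at 0 in no library. Its mean was highest in lo-hi precursors (2.79 ± 0.817 CPM, against 1.16 ± 0.874 in pDCs). Most of the B cell list had its highest mean elsewhere. Cr2 and Vpreb3 also had it in lo-hi precursors. Bank1, Blk, Tnfrsf13c and Cd22 had it in lo-lo precursors, Fcer2a, Pou2af1, Vpreb2 and Fcrl1 in pre-cDCs and the rest in pDCs. The means of Cd79a, Cd79b, Vpreb1, Igll1, Ebf1 and Pax5 were highest in lo-hi precursors. The share of all genes with this trait was not computed. Of these 6, Cd79b alone passed across the populations, and its means in lo-hi precursors and pDCs were level (87.2 and 86.2 CPM). Vpreb1 was level with lo-lo precursors (3.45 CPM, against 3.38), and Igll1 was within their spread (4.23 ± 0.992, against 3.88 ± 1.52). The part of B cell RNA in those levels was not tested. Dntt and Blnk had their highest mean in pDCs, and Rag2 in pre-cDCs.

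**Figure D3:**
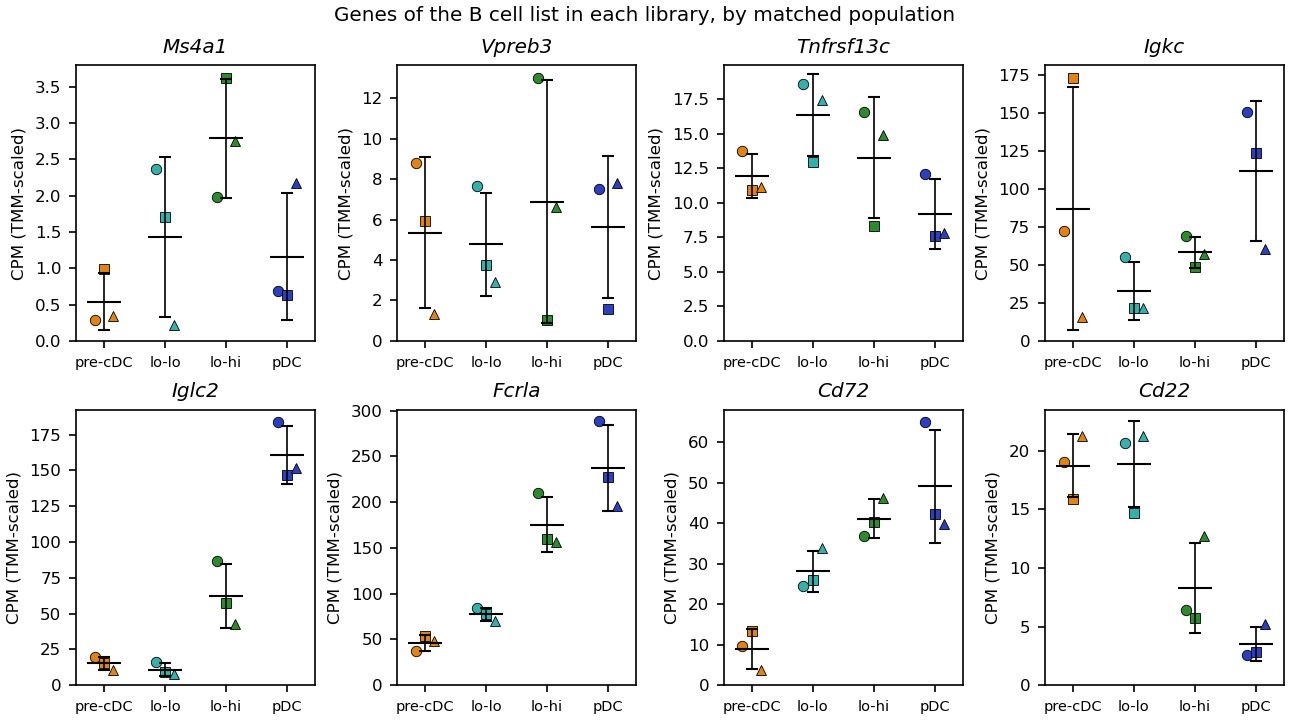
Level of 8 genes of the B cell list in each library, in TMM-scaled CPM, by matched population. Circles, squares and triangles are replicates 1, 2 and 3, long bars are means and error bars are 1 SD (n = 3). The top row shows genes that did not pass across the populations, with Ms4a1 at or below 3.62 CPM, and the bottom row shows Iglc2, Fcrla and Cd72, which were higher in pDCs than in pre-cDCs, beside Cd22, which was lower.

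Other genes of the B cell list differed between the populations. Of the 17, 8 passed across the populations, beside 19.9% of all genes, with 5 higher and 2 lower in pDCs than in pre-cDCs (11.4% and 10.4% of all genes). Fcrla, an Fc receptor-like gene, stood at 46.4 ± 8.54, 77.3 ± 6.91, 175 ± 29.9 and 237 ± 47.3 CPM in pre-cDCs, lo-lo, lo-hi and pDCs, and Cd72, a C-type lectin coreceptor, at 8.92 ± 4.88, 28.1 ± 5.09, 41.2 ± 4.76 and 49.1 ± 13.9. Ralgps2, an exchange factor gene, rose from 18.5 ± 5.44 CPM in pre-cDCs to 54.0 ± 11.6 in pDCs. Cd22, an inhibitory lectin, had the opposite order, with 18.7 ± 2.72 and 18.9 ± 3.63 CPM in pre-cDCs and lo-lo precursors, 8.26 ± 3.84 in lo-hi precursors and 3.53 ± 1.45 in pDCs. Blk, a Src family kinase, was highest in lo-lo precursors (13.8 ± 2.23 CPM, against 2.15 ± 0.494 in pre-cDCs and 3.96 ± 1.48 in pDCs). Fcrl1, with at most 9 counts and named as the eighth gene after its values were seen, was lower in pDCs than in pre-cDCs (adjusted p = 0.0042).

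Immunoglobulin genes split as well. Ighm, the μ heavy chain, was at 395 ± 65.3, 523 ± 48.1, 596 ± 25.1 and 753 ± 179 CPM, and Iglc2, a λ light chain constant segment, at 15.3 ± 4.72, 10.9 ± 4.42, 62.3 ± 22.2 and 161 ± 20.1 CPM. Both were higher in pDCs than in pre-cDCs (adjusted p = 6.7e-05 and 3.7e-08). Igkc, the κ constant segment, spread from 15.5 to 173 CPM within pre-cDCs alone and passed no comparison (adjusted p = 0.35 across the 4 populations). Iglc2 shares sequence with other λ segments, so its counts are uncertain. Vpreb3, with 5.36 ± 3.75, 4.78 ± 2.55, 6.89 ± 6.00 and 5.63 ± 3.51 CPM, and Tnfrsf13c, the BAFF receptor, with 11.9 ± 1.58, 16.3 ± 2.97, 13.2 ± 4.38 and 9.16 ± 2.54, did not pass. The B cell list summed to 620.5 ± 76.8, 765 ± 70.0, 1028 ± 87.5 and 1395 ± 293 CPM in pre-cDCs, lo-lo, lo-hi and pDCs, and without its immunoglobulin genes to 123, 198, 311 and 370.3 CPM. Of this last sum, Fcrla, Cd72 and Ralgps2, set apart after their values were seen, held 73.8, 136, 265 and 340.3 CPM. The other 11 genes together held 49.4, 62.1, 46.6 and 30.0 CPM. Since the split was made on these same values, it cannot show whether B cell RNA rose or fell. The part of B cells in the levels of Dntt, Blnk and Cd79b was not tested. Of 5 plasma cell genes tested 3 passed (Xbp1, Mzb1 and Sdc1, named after their values were seen), beside 19.9% of all genes. All 3 were higher in pDCs than in pre-cDCs, as were 11.4% of all genes. Jchain and Prdm1 did not pass, and Prdm1 had only 0 to 4 counts per library. Tnfrsf17, with 0 to 2 counts, was not tested.

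**Figure D4:**
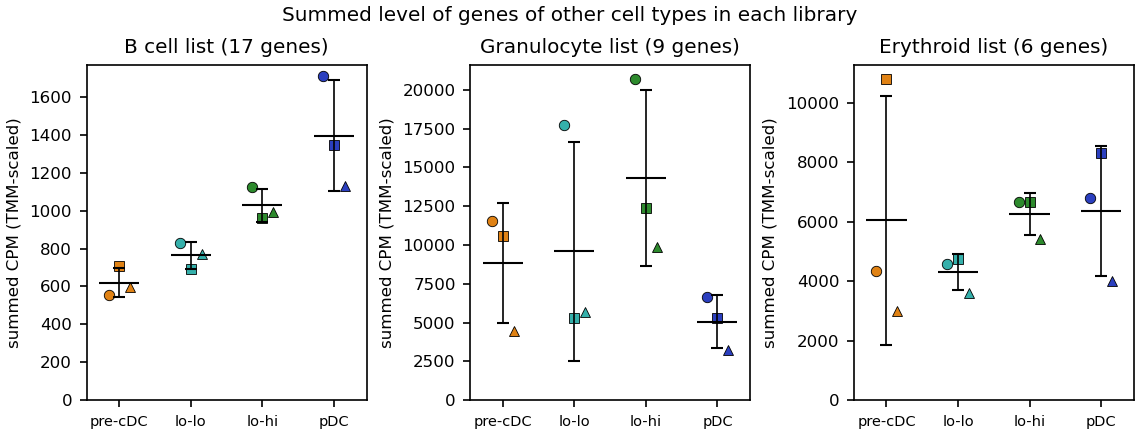
Summed level of genes of other cell types in each library, in TMM-scaled CPM, by matched population. Circles, squares and triangles are replicates 1, 2 and 3, long bars are means and error bars are 1 SD (n = 3). The B cell list is highest in pDCs, and the granulocyte and erythroid lists vary between libraries of one population.

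Genes of other cells varied between libraries of 1 population. The 9 granulocyte genes summed to 3258 to 20678 CPM, highest in lo-hi 1 and lo-lo 1, and the 6 erythroid genes reached 10822 CPM in pre-cDC 2. None of these genes passed across the populations (0 of 9 and 0 of 6, beside 19.9% of all genes). With these 3 libraries left out, a choice made after seeing the data, Dntt alone of the 9 B lymphoid genes passed between lo-hi and lo-lo precursors, while Blnk (log2 0.83, adjusted p = 0.013) and Cd79b (0.71, adjusted p = 0.069) kept their size but not their call. T cell genes summed to 15.2 to 45.2 CPM and 1 of 8 tested passed, and NK cell genes summed to 9.90 to 48.6 CPM with 0 of 3 passing. The part of these cells in the B lymphoid levels was not tested.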

How the data were processed

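RNA of 4 sorted bone marrow populations was measured in 12 libraries by SCRB-seq, which reads mostly the 3′ ends of transcripts. The authors filtered barcodes with zUMIs, mapped reads with STAR to mm10 and assigned them to Ensembl genes of GRCm38, and the deposited table holds unnormalized counts in whole numbers for each gene in each well. Whether these are reads or molecular identifiers is not given in the sources used here. The floor of 3 counts covers counting error only, while SDs and standard errors hold the spread between libraries. A symbol was found for 21410 of the 21754 identifiers.

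Wells were grouped by a rank match to the study's source data, which goes against the deposited labels in 8 wells. The labelled grouping was an alternative. The genes, lists and tests were chosen with earlier results of these data known, so no list is independent support.

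TMM set the library sizes. The 15293 genes whose mean count was 1 or more entered a robust quasi-likelihood fit (edgeR 4.0.16, run under R 4.3.3), and 6461 genes did not. This fit held the 12 libraries together and had population as its sole term. Adjustment was by Benjamini-Hochberg across the genes tested, with a threshold of 0.01. Positions are those of the reference annotation on GRCm38. CPM shown for each library were TMM-scaled, with a prior count of 2 for correlations of log2 CPM. Tested on simulated counts for pDC over lo-hi (15037 genes), the fit called 99 of 112 genes changed by a log2 fold change of 2 in size, 41 of 88 changed by 1 and 1 of 14837 unchanged genes. The changed genes were drawn from those with a mean above 2 CPM, and counts were drawn independently. These rates therefore do not cover Rag2 and Cd79a, whose means were lower, or variation that genes share within a library.

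The genes named were the 10 listed, B cell genes with a mean of at least 5 CPM in a population, up to 6 genes with the smallest p in each pathway list, Siglech, Ccr9 and Zbtb46, and the 3 genes most like each called gene. Alternatives were the tests and size factors of DESeq2 1.42.0, no filter or edgeR's own filter on low counts, a replicate block, the deposited labels, fits of 6 libraries, a cutoff of 0.05 and leaving out each library, and, added after seeing the data, leaving out wells A2, A3 and A5 and dropping immunoglobulin genes from the B cell list. A pair of list genes entered neither counts nor sums and is not reported here.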

Additional observations from a re-analysis of the deposited data

How the results depend on the processing

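Grouping wells by label gave 0 calls for every count with calls by the match, and turned Cd79b in lo-hi over lo-lo to a log2 of -0.049, since it moves 8 wells to other populations. For the 11 called contrasts of Dntt, Cd79b and Blnk, 75 of 88 values under alternatives other than leaving out 1 library, and 120 of 132 under leaving out 1, kept direction and call. Leaving out 1 library gave 2 to 3 of the 9 genes across the populations (2411 to 3335 of all genes), 1 to 3 for lo-hi over lo-lo (1 without lo-hi 1 or lo-lo 3) and 2 to 3 for pDC over lo-lo. All genes called ranged from 280 to 662 for lo-lo over pre-cDC, 381 to 945 for lo-hi over lo-lo and 65 to 213 for pDC over lo-hi. Without wells A2, A3 and A5, lo-hi over lo-lo had 1 of the 9 genes and 372 genes in all. With no filter on low counts, 733 genes passed for lo-lo over pre-cDC (483 with the filter) and 344 for pDC over lo-hi (147), where Dntt and Pax5 made 2 of the 9. The cause was not tested. A cutoff of 0.05 gave 907, 1321, 327, 3332 and 3063 genes for lo-lo over pre-cDC, lo-hi over lo-lo, pDC over lo-hi, pDC over lo-lo and lo-hi over pre-cDC.

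The replicate numbers come from the match. Of 18 pairs of same-numbered libraries, 16 had a correlation of deviations from the population means over 0.1 (-0.259 to 0.483, mean 0.192). Deviations within a population sum to 0. The mean over the 36 other pairs (-0.0958) thus largely follows from the mean of 0.192 and is no separate comparison. Of the 12 libraries, 10 were closest to their own number, which rests on the same correlations. The same-numbered correlations hint at pairing, but 2 pairs were below 0. The legend for these libraries names 3 individual mice, while a general methods statement describes pooled mice for precursor sorts. The pairing was thus not settled. The fit without the block was kept, and its p-values leave out any pairing by mouse. The replicate block gave 3 of the 9 genes across the populations, and 3730 of all genes (3043 without it). It gave 743 and 346 genes for lo-lo over pre-cDC and pDC over lo-hi. Cd79b then passed over pre-cDCs in pDCs (adjusted p = 0.0030) and lo-hi precursors (0.0042). With 0 to 25 counts, Rag2, Cd79a, Vpreb1 and Igll1 could show only large differences.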
